A study of Mus musculus with 12 samples.

Results

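The FoxO factors and antioxidant genes described here are 10 genes taken by name: Foxo1, Foxo3 and Foxo4, the NRF2 gene Nfe2l2, its targets Nqo1, Hmox1 and Gclm, and the enzyme genes Sod1, Sod2 and Cat. All 10 were measured, each by 1 probe set, among 19494 named genes on 12 single-colour arrays of sorted mouse bone marrow cells. Donor marrow was NFAT5-deficient (Nfat5 fl/fl Vav-Cre) or wild-type (Nfat5 +/+ Vav-Cre), so every donor carried the Cre transgene, whose Vav promoter is active in blood cells. The marrow was placed in irradiated wild-type CD45.1 recipients, and donor-derived CD45.2+ cells were sorted 13 weeks later. Hematopoietic stem cells (HSC) were CD48- CD150+ and multipotent progenitors (MPP) CD48+ CD150-, both within the lineage-negative, Sca-1+ Kit+ compartment. The groups were NFAT5-deficient HSC, wild-type HSC, NFAT5-deficient MPP and wild-type MPP, with 3 arrays each, and each array started from 300 pg of total RNA. Arrays carry the sample numbers 64, 70 and 76 (NFAT5-deficient) and 66, 67 and 75 (wild-type), 1 HSC and 1 MPP array per number. The ages of the mice and whether a number marks a single animal are not given in the sources used here, so p-values measure only the spread between these samples.

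FoxO factors are forkhead transcription factors that the kinase AKT keeps out of the nucleus when growth factor signalling is active. In blood stem cells of mice they are known to keep cells quiescent and to raise genes that clear reactive oxygen, among them Sod2 and Cat. NRF2, encoded by Nfe2l2, is released from its inhibitor KEAP1 under oxidative stress and binds antioxidant response elements, where it raises Nqo1, Hmox1, Gclm and others. NFAT5 is a transcription factor of cells under high salt, and the arrays addressed what its loss does in regenerating stem and progenitor cells.

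None of the 10 genes passed the test in any of 7 comparisons by genotype or cell population (limma, Benjamini-Hochberg adjustment over all genes, threshold 0.05). Their group means stayed within 0.47 of each other on the log2 scale for 9 of the 10 genes, and Gclm, with a span of 1.53, was the exception. A missing call does not show that a gene stayed level, and the intervals given below say how large a difference these arrays could have held. Values are log2 intensities, on which a difference of 1 is a factor of 2 in signal. A sorted sample gives 1 value for many cells, so fewer expressing cells and less RNA per cell cannot be told apart.

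The arrays matched their labels for the sorting markers. Slamf1, which encodes CD150, read 9.25 to 10.67 in HSC and 6.06 to 6.90 in MPP, and Cd48 read 5.39 to 7.85 in HSC and 9.26 to 10.61 in MPP. Nfat5 itself read 7.62 to 8.76 in NFAT5-deficient HSC and 9.27 to 9.81 in wild-type HSC. In MPP it read 7.63 to 8.40 in NFAT5-deficient and 8.12 to 8.85 in wild-type cells, where the groups overlapped, and limma called it in neither population. The mean of 9 mature neutrophil genes was 5.42 to 5.53 in NFAT5-deficient HSC and 5.52 to 7.38 in wild-type HSC, with the high values on numbers 66 and 67. In MPP the same mean was 6.01 to 6.62 in NFAT5-deficient and 5.96 to 7.02 in wild-type cells. The means of macrophage and monocyte markers (10 measured, 5.96 to 6.43) and of B cell markers (4 measured, 5.82 to 6.41) varied little between arrays. Single markers in them varied more. Ly6c2 read 4.54 to 5.87 in HSC and 6.14 to 8.85 in MPP, and Cd79b 5.93 to 7.46 over all arrays. The means of the other lists spanned 7.91 to 8.44 (erythroid, 6 measured), 5.36 to 5.83 (T cell, 5) and 6.13 to 6.38 (stromal and endothelial, 7). Megakaryocyte genes (5) read 8.14 to 8.57 in HSC and 6.97 to 7.53 in MPP. Detection calls were not used here. As a guide to background, the 1091 olfactory receptor genes, which marrow cells are not known to use, had a median level of 4.93 and a 90th percentile of 6.04. The values of Nqo1 (5.38 to 6.38), Hmox1 (5.79 to 6.75) and Foxo4 (5.87 to 6.80) lay within or just above that range, so their differences may be understated.

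**Figure D1:**
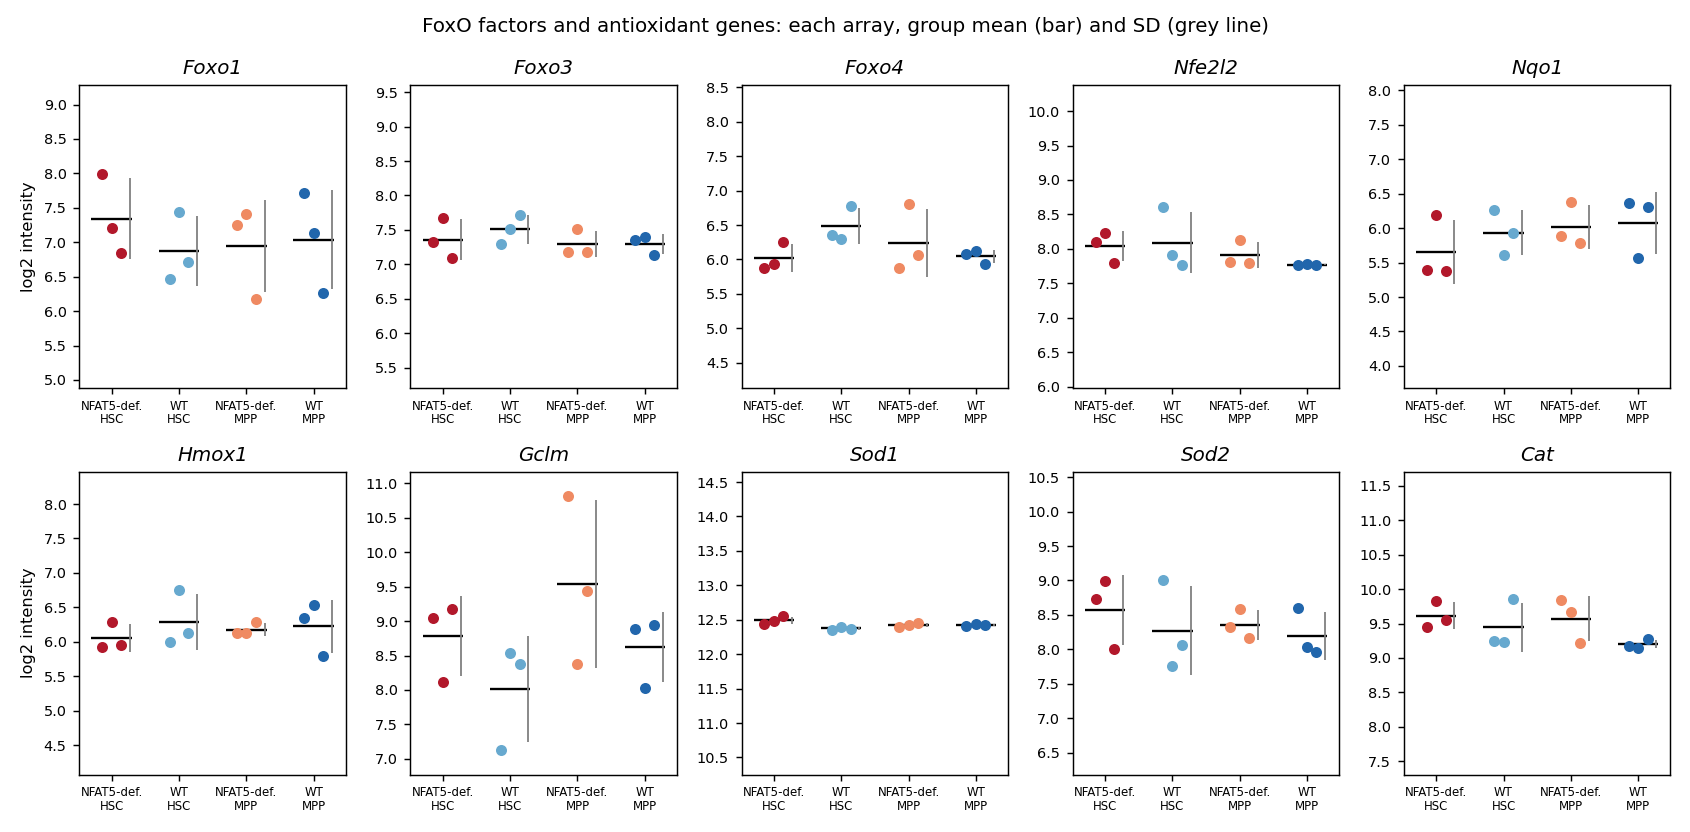
Log2 intensity (vertical axes, all spanning the same distance) of the 10 genes on each of the 12 arrays, by group, with points in the order of the sample numbers. Horizontal bars are group means and grey lines are 1 SD to each side (n = 3). Groups overlap in most panels, Sod1 lies between 12.35 and 12.55 throughout, and Gclm spreads from 7.13 to 10.81.

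Of the 3 FoxO factors, Foxo3 varied least. Foxo3, the member most often tied to stem cell maintenance in mice, read 7.32, 7.67 and 7.09 in NFAT5-deficient HSC and 7.30, 7.51 and 7.72 in wild-type HSC. In MPP it read 7.18, 7.51 and 7.18 in NFAT5-deficient cells and 7.36, 7.39 and 7.13 in wild-type cells. The groups overlapped in both populations. Averaged over HSC and MPP, the difference between NFAT5-deficient and wild-type cells was -0.08 (SE 0.15, limma adjusted p = 0.895). Its 95% confidence interval, -0.41 to 0.26, corresponds to 0.753 to 1.19 times the wild-type signal.

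Foxo1, which also serves lymphoid development, spread more widely within every group. It read 7.99, 7.20 and 6.84 in NFAT5-deficient HSC and 6.46, 7.44 and 6.72 in wild-type HSC, so the groups overlapped. In MPP the values were 7.25, 7.41 and 6.18 in NFAT5-deficient cells and 7.71, 7.14 and 6.27 in wild-type cells. Each MPP group held 1 array well below its other arrays, number 76 in NFAT5-deficient cells and number 75 in wild-type cells. The genotype difference was 0.47 in HSC (SE 0.46, 95% interval -0.55 to 1.5) and -0.09 in MPP (SE 0.46, -1.12 to 0.93), with limma adjusted p of 0.917 and 0.986. Without NFAT5-deficient HSC array 64 the HSC difference shrank to 0.148.

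Foxo4, the X-linked factor of the family, had wild-type HSC as its highest group. It read 5.87, 5.93 and 6.25 in NFAT5-deficient HSC and 6.36, 6.30 and 6.78 in wild-type HSC. Every NFAT5-deficient HSC array thus lay below every wild-type HSC array, although the gap between 6.25 and 6.30 was small. The difference was -0.46 (SE 0.23, 95% interval -0.97 to 0.05, limma unadjusted p = 0.0717, adjusted p = 0.829), and the exact two-sided permutation p was 0.1, which no design of this size can go below. The MPP values were 5.87, 6.80 and 6.06 in NFAT5-deficient cells and 6.08, 6.12 and 5.94 in wild-type cells, which overlapped. Here the sign was opposite, with a difference of 0.20 (SE 0.23, limma adjusted p = 0.906), and it turned to -0.0787 without NFAT5-deficient MPP array 70. The test of whether the genotype effect differed between HSC and MPP gave -0.66 (SE 0.33, limma unadjusted p = 0.0689, adjusted p = 0.999), which did not pass and shrank to -0.384 without NFAT5-deficient MPP array 70.

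Nfe2l2 differed little between genotypes. It read 8.10, 8.23 and 7.80 in NFAT5-deficient HSC and 8.60, 7.91 and 7.76 in wild-type HSC. In MPP it read 7.81, 8.13 and 7.79 in NFAT5-deficient cells and 7.77, 7.78 and 7.76 in wild-type cells. The MPP groups did not overlap, but array 76 of the NFAT5-deficient and array 67 of the wild-type cells were 0.01 apart after rounding (exact two-sided permutation p = 0.1). Wild-type MPP varied by an SD of 0.01 and the other groups by 0.19 to 0.44. The genotype difference was -0.05 in HSC (95% interval -0.61 to 0.51, limma adjusted p = 0.986) and 0.14 in MPP (-0.42 to 0.70, limma adjusted p = 0.946). Its sign in HSC turned in 2 of the fits that left out a single array, and the difference was 0.205 without wild-type array 66.

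Among the NRF2 targets, Gclm held the widest differences of all 10 genes. Gclm encodes the modifier subunit of glutamate-cysteine ligase, the rate-limiting enzyme of glutathione synthesis. It read 9.05, 8.11 and 9.18 in NFAT5-deficient HSC and 7.13, 8.54 and 8.37 in wild-type HSC. In MPP it read 10.81, 8.38 and 9.44 in NFAT5-deficient cells and 8.89, 8.03 and 8.95 in wild-type cells. The NFAT5-deficient mean was the higher of each pair, but the groups overlapped in both populations. The difference was 0.77 in HSC (SE 0.61, limma adjusted p = 0.900) and 0.92 in MPP (SE 0.61, limma adjusted p = 0.899). Averaged over HSC and MPP it was 0.85 (SE 0.43, limma unadjusted p = 0.0748, adjusted p = 0.710), or 1.80 times the wild-type signal with a 95% interval of 0.933 to 3.46 times. Single arrays carried much of this. Without NFAT5-deficient MPP array 64 the MPP difference was 0.291, and without wild-type HSC array 66 the HSC difference was 0.322. The averaged difference was 0.528 without NFAT5-deficient MPP array 64.

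The other NRF2 targets had lower averaged values in NFAT5-deficient cells, also without passing the test. Nqo1, the quinone reductase gene, read 5.39, 6.19 and 5.38 in NFAT5-deficient HSC and 6.26, 5.61 and 5.93 in wild-type HSC. Among MPP arrays it read 5.88, 6.38 and 5.79 in NFAT5-deficient cells and 6.37, 5.56 and 6.31 in wild-type cells. NFAT5-deficient HSC array 70 and wild-type MPP array 67 stood apart from the other arrays of their groups, and the groups overlapped. The averaged difference was -0.17 (SE 0.21, 95% interval -0.63 to 0.29, limma adjusted p = 0.824). Hmox1, which encodes the heme-degrading enzyme heme oxygenase 1, read 5.92, 6.29 and 5.96 in NFAT5-deficient HSC and 5.99, 6.75 and 6.12 in wild-type HSC. The MPP arrays gave 6.13, 6.12 and 6.28 in NFAT5-deficient cells and 6.35, 6.53 and 5.79 in wild-type cells. The highest value in each population was that of wild-type number 67, whose mature neutrophil mean was also the highest there (7.38 in HSC and 7.02 in MPP). Wild-type number 66 had the next highest neutrophil means, 6.88 in HSC and 6.94 in MPP. Its Hmox1 value was the lowest among wild-type HSC (5.99) and the next highest among MPP (6.35). The part of neutrophil transcripts in the result was not tested. The averaged Hmox1 difference was -0.14 (SE 0.16, 95% interval -0.50 to 0.23, limma adjusted p = 0.824), and without wild-type HSC array 67 the HSC difference turned to 0.00694.

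Promoter sequence is shown for 3 genes that the results turn on: Gclm, with the widest genotype difference, Nqo1, an NRF2 target whose averaged difference had the opposite sign, and Sod1, which had the smallest unadjusted p. RefSeq promoters of build GRCm38.p6 were matched for 8 of the 10 genes by symbol. The 250 bases before the start annotated for each promoter were searched on both strands. The motifs were the antioxidant response element core TGACNNNGC, a FoxO site GTAAACA and an NFAT core TGGAAA, which do not overlap each other in these windows. The antioxidant core was present in 3 of the 8 windows (Gclm, Nfe2l2 and Sod1) and in 10.2% of all 32851 RefSeq promoter windows of that length. The NFAT core was present in 1 (Foxo1), against 18.6% of all windows, and the FoxO site in 0, against 3.17%. A match is a string of letters and no shown binding site. The windows below run 5′ to 3′ on the strand of the gene, with matched motifs in capitals, and lie at chr3:122245307-122245556 (plus strand, Gclm), chr8:107403206-107403455 (minus strand, Nqo1) and chr16:90220512-90220761 (plus strand, Sod1).
Gclm: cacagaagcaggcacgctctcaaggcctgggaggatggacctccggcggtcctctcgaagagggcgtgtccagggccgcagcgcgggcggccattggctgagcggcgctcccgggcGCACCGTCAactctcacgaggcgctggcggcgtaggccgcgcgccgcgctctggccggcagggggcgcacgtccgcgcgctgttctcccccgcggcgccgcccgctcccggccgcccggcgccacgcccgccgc
Nqo1: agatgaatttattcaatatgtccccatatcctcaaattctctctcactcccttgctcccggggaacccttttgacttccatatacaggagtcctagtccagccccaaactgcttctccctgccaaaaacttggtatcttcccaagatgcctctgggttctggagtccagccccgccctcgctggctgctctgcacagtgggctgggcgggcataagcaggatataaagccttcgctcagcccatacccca
Sod1: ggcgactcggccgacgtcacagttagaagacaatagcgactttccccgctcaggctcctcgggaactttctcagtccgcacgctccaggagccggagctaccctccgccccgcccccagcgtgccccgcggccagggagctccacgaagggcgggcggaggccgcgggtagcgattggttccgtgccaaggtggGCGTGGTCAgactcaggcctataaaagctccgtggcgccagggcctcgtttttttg
The Gclm window holds the core on the opposite strand as GCACCGTCA, with its first base at position -134 from the start, and the Sod1 window as GCGTGGTCA, at position -56. The Nqo1 window holds none of these 3 motifs, and sequence further upstream was not searched for any gene. Positions count from the start annotated for the promoter. For Gclm the RefSeq gene begins inside the window, at chr3:122245487.

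Sod1, the cytosolic copper-zinc superoxide dismutase gene, was the most even of the 10. It read 12.44, 12.48 and 12.55 in NFAT5-deficient HSC and 12.35, 12.40 and 12.37 in wild-type HSC. All 3 NFAT5-deficient HSC arrays therefore lay above all 3 wild-type HSC arrays, but the nearest arrays, at 12.44 and 12.40, were close. The difference was 0.11 (SE 0.05, 95% interval 0.01 to 0.21), or 1.08 times the wild-type signal, with a limma unadjusted p of 0.0285 and an adjusted p of 0.779. The limma unadjusted p depended on the variance prior, and was 0.235 with a prior that ignores intensity and 0.0659 with a robust prior. It was 0.0997 with only the HSC arrays fitted and 0.00935 with dim genes left out. With centring, quantile normalization and array weights it was 0.0303, 0.0331 and 0.0364. In MPP the values were 12.40, 12.42 and 12.45 in NFAT5-deficient cells and 12.41, 12.44 and 12.43 in wild-type cells, with a difference of 0.00 (95% interval -0.10 to 0.10). The test of the difference between these effects gave 0.12 (SE 0.06, limma unadjusted p = 0.0946, adjusted p = 0.999). Its limma unadjusted p was 0.0429 with dim genes left out and 0.251 with arrays centred on their median. It was 0.166 with a robust prior and 0.382 with a prior that ignores intensity. The pooled within-group SD was 0.04, against 0.21 to 0.82 for the other 9 genes. Sod1 read at the 99.8 or 99.9 percentile of all genes on each array, and the part of that position near the top of the scale in its small spread and differences was not tested.

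Sod2 and Cat, which encode the mitochondrial superoxide dismutase and the peroxisomal catalase that breaks down hydrogen peroxide, had higher means in NFAT5-deficient cells without passing the test. Sod2 read 8.73, 8.99 and 8.01 in NFAT5-deficient HSC and 9.0, 7.76 and 8.06 in wild-type HSC. Its MPP values were 8.32, 8.58 and 8.16 in NFAT5-deficient cells and 8.60, 8.03 and 7.96 in wild-type cells. The groups overlapped in both populations, and the averaged difference was 0.23 (SE 0.26, 95% interval -0.35 to 0.80, limma adjusted p = 0.817). It was 0.0985 without wild-type HSC array 67 and 0.408 without wild-type HSC array 66. Cat read 9.45, 9.83 and 9.55 in NFAT5-deficient HSC and 9.24, 9.23 and 9.86 in wild-type HSC. Among MPP arrays it read 9.84, 9.66 and 9.21 in NFAT5-deficient cells and 9.18, 9.15 and 9.27 in wild-type cells. The Cat groups overlapped in HSC through wild-type number 75, and in MPP where NFAT5-deficient number 76 (9.21) lay below wild-type number 75 (9.27). The Cat difference was 0.17 in HSC and 0.37 in MPP, and averaged 0.27 (SE 0.17, 95% interval -0.11 to 0.65, limma unadjusted p = 0.146, adjusted p = 0.722), or 1.20 times the wild-type signal. Leaving out single arrays gave 0.0603 (without NFAT5-deficient array 70) to 0.378 (without wild-type array 75) in HSC, and 0.233 (without NFAT5-deficient array 64) to 0.549 (without NFAT5-deficient array 76) in MPP.

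Counted together, 0 of 10 genes were called by genotype in HSC, where 0% of all genes were called, and 1 (Sod1) had an unadjusted p under 0.05, against 6.18% of all genes. In HSC 1 gene did not overlap upward (Sod1, against 3.55% of all genes) and 1 downward (Foxo4, against 6.61%). In MPP 0 of 10 were called, against 0.00513% of all genes, 0 had an unadjusted p under 0.05 (5.35% of all genes), 1 did not overlap upward (Nfe2l2, against 3.80%) and 0 downward (against 8.84%). Averaged over both populations 0 were called and 0 had an unadjusted p under 0.05, against 0% and 7.11% of all genes. The test of the difference between HSC and MPP effects also called 0 genes (0% of all genes) and gave 0 unadjusted p under 0.05 (4.19%). The median difference of the 10 genes was 0.03 in HSC and 0.07 in MPP, where the medians of all genes were -0.05 and -0.07.

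**Figure D2:**
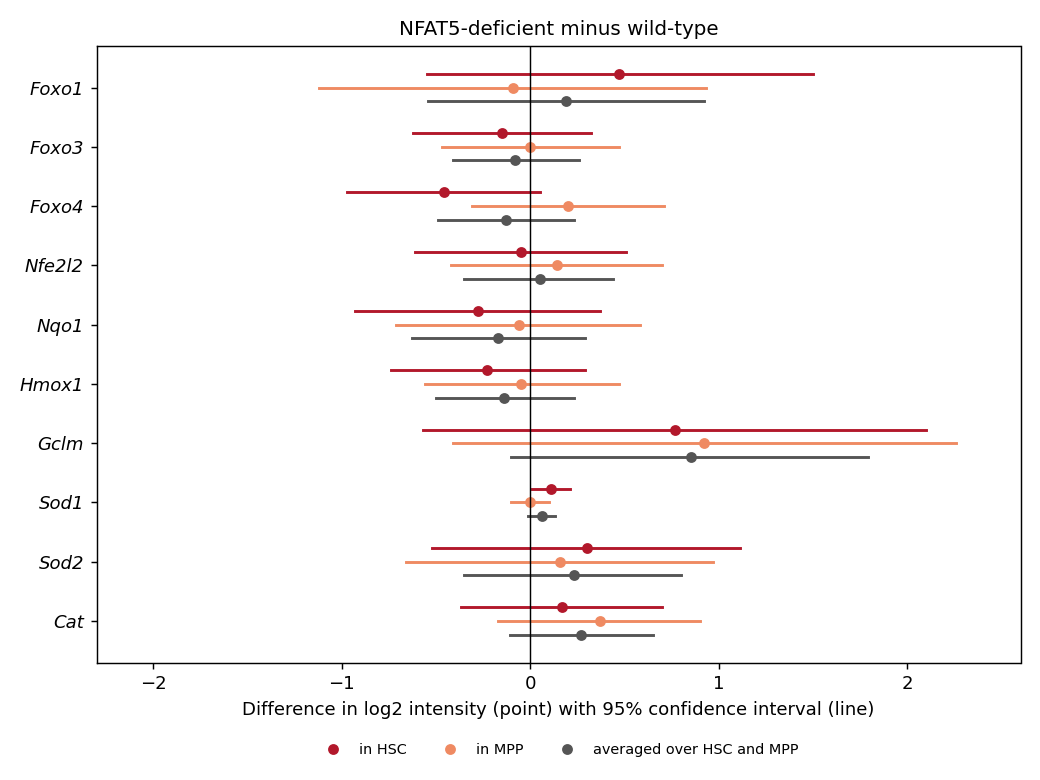
Difference in log2 intensity between NFAT5-deficient and wild-type cells (horizontal axis) for the 10 genes, in HSC, in MPP and averaged over both. Points are differences and lines are 95% confidence intervals from limma (3 arrays per group). All intervals but that of Sod1 in HSC, 0.01 to 0.21, include 0, and those of Gclm are the widest.

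The 10 genes were also compared between populations. In NFAT5-deficient cells 0 of 10 were called for HSC against MPP (0.21% of all genes), 0 had an unadjusted p under 0.05 (7.90%), and none had groups that did not overlap (11.5% of all genes upward and 5.39% downward). In wild-type cells 0 were called (0.164% of all genes) and 0 had an unadjusted p under 0.05 (8.90%). There 1 gene did not overlap upward in HSC (Foxo4, against 7.54%) and 1 downward (Sod1, against 4.74%). With the genotypes averaged, 0 of 10 were called, against 0.610% of all genes, and 0 had an unadjusted p under 0.05, against 12.2%. These arrays did call other genes between HSC and MPP, 119 in the averaged comparison. The median difference of the 10 genes there was 0.11, and that of all genes was 0.06.

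Averaged over genotypes, 7 of the 10 genes had the higher mean in HSC, and Gclm, Nqo1 and Hmox1 the lower one, although Sod1 turned to -0.0423 with each array centred on its median. Nfe2l2 averaged 8.07 in HSC and 7.84 in MPP over the genotypes, a difference of 0.23 (SE 0.18, 95% interval -0.17 to 0.63, limma adjusted p = 0.625). For Foxo3 the means were 7.43 in HSC and 7.29 in MPP, a difference of 0.14 (SE 0.15, -0.19 to 0.48, limma adjusted p = 0.716). The Foxo3 interval reaches from 0.877 to 1.39 times the MPP signal. Gclm averaged 8.40 in HSC and 9.08 in MPP, a difference of -0.69 (SE 0.43, 95% interval -1.63 to 0.26, limma adjusted p = 0.548). The Gclm difference was -0.369 without NFAT5-deficient MPP array 64 and -0.977 without NFAT5-deficient MPP array 70. Nqo1 averaged 5.80 in HSC and 6.05 in MPP (difference -0.25, SE 0.21, limma adjusted p = 0.636). Foxo1, Foxo4, Hmox1, Sod1, Sod2 and Cat differed by -0.03 to 0.15, each with an interval that included 0. Foxo4 had opposite signs by genotype, with -0.23 in NFAT5-deficient cells and 0.44 in wild-type cells, and the test of that difference is the interaction given above. Sod1 showed 0.07 in NFAT5-deficient cells and -0.05 in wild-type cells. With each array centred on its median the difference was 0.00391 in NFAT5-deficient and -0.0886 in wild-type cells, and the Sod1 interaction had an unadjusted p of 0.251 (limma).

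**Figure D3:**
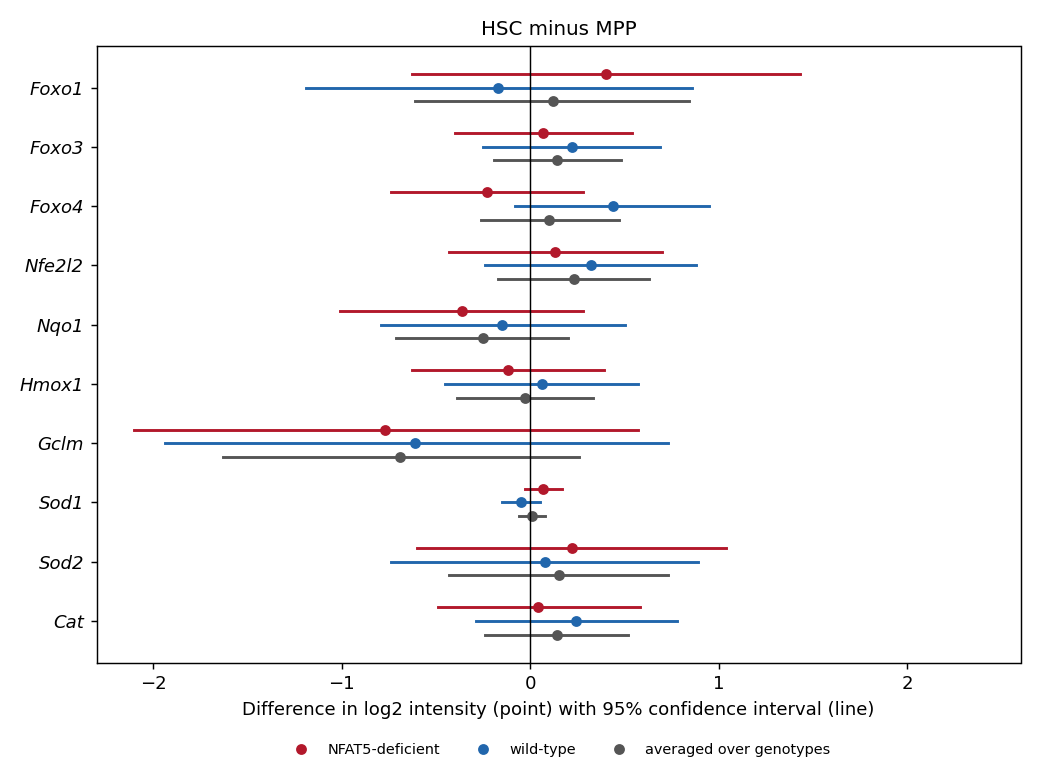
Difference in log2 intensity between HSC and MPP (horizontal axis) for the 10 genes, in NFAT5-deficient cells, in wild-type cells and averaged over genotypes. Points are differences and lines are 95% confidence intervals from limma (3 arrays per group). Every interval includes 0, and Gclm lies furthest to the left, at -0.69 in the average.

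The order of the 4 groups was not shared by the 10 genes. For Gclm the means were 9.55 in NFAT5-deficient MPP, 8.78 in NFAT5-deficient HSC, 8.62 in wild-type MPP and 8.01 in wild-type HSC. The SDs in that order were 1.22, 0.58, 0.51 and 0.77, and no neighbours differ beyond their spread. For Foxo4 wild-type HSC came first at 6.48 and the other 3 groups lay between 6.02 and 6.24. For Cat wild-type MPP came last at 9.20, with the other 3 groups between 9.44 and 9.61. Gclm was the gene with group means more than 1 apart, and its profile over the 12 arrays was compared with 17394 other named genes. The smallest root mean square differences between centred profiles were those of Zbtb44 (0.48), Cep55 (0.49) and Sdccag8 (0.50), where that of Gclm to a flat profile was 0.86. These 3 were picked as the closest of all candidates, and whether unrelated genes would come as close was not tested. Cep55 averaged 6.84 in NFAT5-deficient HSC and 7.03 in wild-type HSC, the opposite order to Gclm. Within groups the median SD of the 10 genes was 0.25 in NFAT5-deficient HSC and 0.39 in wild-type HSC, against 0.22 and 0.25 for all genes. In MPP it was 0.26 in NFAT5-deficient and 0.25 in wild-type cells, against 0.20 and 0.23 for all genes.

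Further genes of these pathways were taken from fixed lists. Of 23 measured glutathione and thioredoxin genes, 0 passed by genotype in HSC, in MPP or averaged (limma), where 0%, 0.00513% and 0% of all genes were called. In the averaged comparison 0 had an unadjusted p under 0.05, against 7.11% of all genes. Txnip, which encodes an inhibitor of thioredoxin, read 11.92, 12.20 and 11.96 in NFAT5-deficient HSC and 10.82, 11.80 and 11.97 in wild-type HSC. These groups overlapped at a single wild-type array, and the averaged genotype difference was 0.36 (SE 0.17, limma adjusted p = 0.710), or 0.187 without wild-type HSC array 66. Txnrd1, a thioredoxin reductase gene and NRF2 target, averaged 10.05 in NFAT5-deficient MPP and 9.38 in wild-type MPP, a difference of 0.66 (SE 0.28, limma adjusted p = 0.896). In HSC it averaged 9.95 in NFAT5-deficient and 9.93 in wild-type cells, and averaged over both populations the difference was 0.34 (limma adjusted p = 0.722).

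Of 18 measured NRF2 partners, inhibitors and further targets, 0 passed by genotype. In the averaged comparison 3 had an unadjusted p under 0.05, against 7.11% of all genes in either direction. All 3 were higher in NFAT5-deficient cells, where 2.48% of all genes were so at that threshold. Bach1, which encodes a repressor that competes with NRF2 at antioxidant response elements, read 9.32, 8.96 and 9.57 in NFAT5-deficient HSC and 8.31, 8.74 and 7.61 in wild-type HSC. All NFAT5-deficient HSC arrays lay above all wild-type ones, as was so for 3.55% of all genes. The Bach1 difference was 1.06 (SE 0.29, limma unadjusted p = 0.00386, adjusted p = 0.772). In MPP Bach1 averaged 8.71 in NFAT5-deficient and 8.75 in wild-type cells, and the test of the difference between these effects gave 1.11 (SE 0.41, limma unadjusted p = 0.0208, adjusted p = 0.999). Maff, which encodes a small MAF protein that pairs with NRF2 or BACH1, averaged 7.48 in NFAT5-deficient HSC and 5.66 in wild-type HSC, where arrays 66 and 75 (5.34 and 5.24) lay within the olfactory receptor range. In MPP it averaged 7.34 in NFAT5-deficient and 6.81 in wild-type cells. The averaged difference was 1.17 (SE 0.48, limma unadjusted p = 0.0317, adjusted p = 0.690), with SDs of 0.65 to 1.29 within groups.

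Of 27 measured FoxO targets, 0 passed by genotype, and 1 had an unadjusted p under 0.05 in the averaged comparison, against 7.11% of all genes. The gene was Ppargc1a, a coactivator gene of mitochondrial biogenesis, which averaged 6.47 in NFAT5-deficient HSC and 5.67 in wild-type HSC. In MPP it averaged 6.51 in NFAT5-deficient and 5.59 in wild-type cells, and all wild-type arrays lay below the olfactory receptor 90th percentile of 6.04. Its averaged difference was 0.86 (SE 0.26, limma unadjusted p = 0.00819, adjusted p = 0.656), and 1 NFAT5-deficient array of each population (5.68 for both) lay within the range of the wild-type arrays. Sesn2, a stress-induced sestrin gene, averaged 5.51 in NFAT5-deficient MPP and 5.92 in wild-type MPP (difference -0.41, SE 0.12, limma adjusted p = 0.871), with both means inside the olfactory receptor range. In the averaged comparison it differed by -0.19 (limma adjusted p = 0.700).

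Of 25 measured regulators of FoxO activity, 0 passed by genotype and 1 passed for HSC against MPP averaged over genotypes. In that comparison 0.610% of all genes were called in either direction and 0.313% downward. Sgk3, which encodes a kinase related to AKT that acts on FoxO factors, was lower in HSC, where it fell by 1.56 log2 units against MPP (SE 0.29, adjusted p = 0.0470 with limma). The call was lost with the sample number as a replicate block (adjusted p = 0.152), with a robust prior (0.0502) and with quantile normalization (0.0514). It read 8.30, 9.41 and 8.33 in NFAT5-deficient HSC and 10.25, 10.33 and 10.26 in NFAT5-deficient MPP, and 7.52, 9.16 and 8.68 in wild-type HSC and 10.03, 9.72 and 10.16 in wild-type MPP. Every HSC array lay below every MPP array, and the difference was -1.60 in NFAT5-deficient and -1.51 in wild-type cells. Within a genotype, 5.39% of all genes in NFAT5-deficient and 4.74% in wild-type cells separated downward. Sgk3 was named for its call between HSC and MPP, so this separation adds no independent support. The adjusted p of Sgk3 stood close to the threshold. It ended above it without any 1 of 9 arrays, at up to 0.112 (all arrays but NFAT5-deficient HSC 70 and wild-type HSC 66 and 67). Without single arrays the difference kept to -1.74 to -1.32. The median of the 25 regulators in that comparison was -0.13, that of all genes 0.06.

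**Figure D4:**
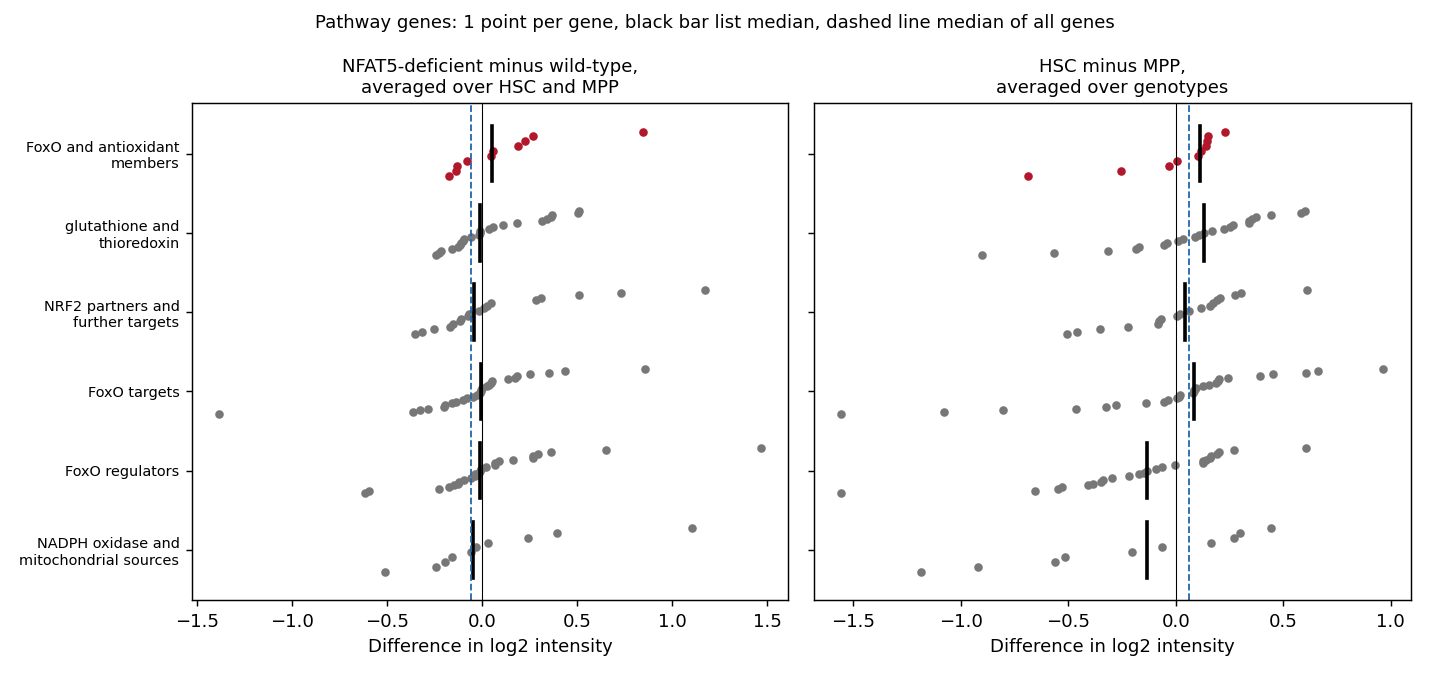
Difference in log2 intensity (horizontal axes) of each measured gene of 6 lists, for NFAT5-deficient against wild-type cells averaged over populations (left) and HSC against MPP averaged over genotypes (right). Each point is a gene, black bars are list medians and the dashed line is the median of all genes (-0.06 left, 0.06 right). The list medians lie between -0.05 and 0.05 on the left and between -0.13 and 0.13 on the right.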

How the data were processed

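Deposited values were log2 intensities in 1 table, with a row per probe set, and their range fits the log2 scale. RMA and limma appear in the submitters' processing notes, with neither version nor role. The sources used here do not give the genome build of the probe annotation. Of 22142 probe sets, 19527 had 1 gene symbol, 0 several and 2615 none. For 33 genes with several, the brightest stood in, leaving 19494 genes. No filter or further normalization was applied.

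A limma fit (version 3.58.1, R 4.3.3) had a mean per group over all 12 arrays and an intensity-dependent variance prior, and p-values were adjusted by Benjamini-Hochberg over all genes. Single genes also had exact two-sided permutation tests. The fit was tested on simulated data. Promoters were RefSeq's. Drawings used matplotlib 3.10.9.

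The 10 genes, the 5 pathway lists and the marker lists were chosen with earlier results of these data known. From each list up to 4 called genes were named, otherwise the 2 with the smallest unadjusted p in the averaged genotype comparison. Symbol Mst1 in the regulator list is a secreted ligand, not the kinase of that alias. Settings varied were the filter, the variance prior, the arrays in the fit, scaling, array weights, probe set choice, the sample number as a block, and each array left out. For arrays, their number limits the precision.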

Additional observations from a re-analysis of the deposited data

How the results depend on the processing

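No alternative called any of the 10 genes in any of the 7 comparisons. Of 1433 values of these genes under these alternatives, 1366 kept their sign and 67 turned it, all of them uncalled. Nqo1 dropped out when dim genes were left out. With arrays centred on their median, the genotype difference in MPP was 0.0435 for Foxo3 and 0.0423 for Sod1, and HSC minus MPP was -0.0208 for Cat in NFAT5-deficient cells and -0.0423 for Sod1 averaged. With quantile normalization Hmox1 in MPP was 0.0147 and Nfe2l2 averaged by genotype -0.00852, and with array weights Foxo3 was 0.00398 and Hmox1 0.00572 in MPP.

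Leaving out each array in turn moved these genes across 0. By genotype in HSC the ranges were -0.212 to 0.205 (Nfe2l2) and -0.374 to 0.00694 (Hmox1). By genotype in MPP they were -0.477 to 0.292 (Foxo1), -0.109 to 0.0531 (Foxo3), -0.0787 to 0.386 (Foxo4), -0.322 to 0.0817 (Nqo1), -0.263 to 0.103 (Hmox1) and -0.017 to 0.00962 (Sod1). By genotype averaged they were -0.00208 to 0.382 (Foxo1) and -0.0354 to 0.173 (Nfe2l2). For the difference of the genotype effects they were -0.352 to 0.0646 (Nfe2l2), -0.487 to 0.0414 (Nqo1), -0.328 to 0.0547 (Hmox1), -0.742 to 0.475 (Gclm), -0.114 to 0.505 (Sod2) and -0.38 to 0.00915 (Cat). For HSC minus MPP they were -0.0854 to 0.203 (Foxo3), -0.414 to 0.0513 (Foxo4) and -0.139 to 0.177 (Cat) in NFAT5-deficient cells. In wild-type cells they were -0.55 to 0.169 (Foxo1), -0.405 to 0.0172 (Nqo1), -0.174 to 0.209 (Hmox1) and -0.285 to 0.334 (Sod2). Averaged over genotypes they were -0.0753 to 0.284 (Foxo1), -0.147 to 0.0449 (Hmox1), -0.0086 to 0.0198 (Sod1) and -0.0329 to 0.291 (Sod2).

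Counts over all genes moved more. By genotype, MPP had 1 call, against 0 with dim genes left out or only the groups compared, 3 with centring, 2 with quantile normalization and 6 with array weights, and 0 to 4 without single arrays. HSC had 0 calls and 0 to 3 without single arrays, the averaged comparison 0 and 0 to 2. The difference of effects had 0, against 1 with dim genes left out and 0 to 1 without single arrays. For HSC minus MPP the counts were 41 in NFAT5-deficient cells (23 with robust eBayes, 24 with quantile normalization, 12 with only the groups compared, 5 to 32 without single arrays), 32 in wild-type cells (9 with only the groups compared, 11 to 30 without single arrays) and 119 averaged (71 to 112). The main fit did not pair arrays by sample number. Deviations of HSC and MPP arrays from their group means correlated across genes at -0.014 to 0.064 for the same number. For different numbers of a genotype they correlated at -0.083 to 0.041. Such low values do not show that arrays of a number were independent. In wild-type cells the mature neutrophil means in HSC and MPP were 6.88 and 6.94 (number 66), 7.38 and 7.02 (67), and 5.52 and 5.96 (75). With the sample number as a replicate block the 3 counts for HSC minus MPP were 3, 5 and 52, from a fit with fewer degrees of freedom. Sgk3 lost its call there (limma adjusted p = 0.152), as it did with robust eBayes (0.0502) and quantile normalization (0.0514). The cause of the other changes was not tested. With 3 arrays per group, 95% intervals of the 10 genes reached 0.10 (Sod1) to 1.34 (Gclm) log2 units to each side within a population.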

Other observations

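Genes of reactive oxygen sources were measured beside the antioxidant genes. Of 10 measured NADPH oxidase and mitochondrial genes, 0 passed by genotype or population (limma), and 1 had an unadjusted p under 0.05 in the averaged genotype comparison, against 7.11% of all genes. This was Ncf4, which encodes a cytosolic subunit of the phagocyte NADPH oxidase. It read 6.37, 6.31 and 8.48 in NFAT5-deficient MPP and 5.07, 5.09 and 3.84 in wild-type MPP, so these groups did not overlap (3.80% of all genes did so upward). The difference was 2.38 (SE 0.55, limma unadjusted p = 0.00126, adjusted p = 0.706), with the wild-type values within the range of the olfactory receptor genes. In HSC Ncf4 averaged 4.59 in NFAT5-deficient and 4.76 in wild-type cells, also within that range, and the test of the difference between these effects gave -2.55 (SE 0.77, limma unadjusted p = 0.00751, adjusted p = 0.999). Cyba, which encodes a membrane subunit of the same oxidase, averaged 8.23 in NFAT5-deficient MPP and 8.54 in wild-type MPP. In HSC it averaged 8.57 in NFAT5-deficient and 8.74 in wild-type cells, with an averaged genotype difference of -0.24 (SE 0.13, limma adjusted p = 0.721).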
